A study of Mus musculus with 46 samples.

Results

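The common gamma-chain cytokines and their receptor chains were followed as 10 genes, 4 ligands (Il2, Il21, Il7 and Il15) and 6 receptor chains (Il2rg, Il2rb, Il7r, Il15ra, Il21r and Il4ra), chosen by name among the 48795 Ensembl genes of a table of RNA-seq values from MC-38 tumors. MC-38 is a colon carcinoma line of C57BL/6 mice that was implanted subcutaneously in female mice of 8 to 10 weeks. The values are FPKM, fragments of a gene relative to its transcript length and to the library's mapped total, in 46 samples that fall into 8 groups. They were 3 cultures of MC-38 cells, 3 tumors at baseline, from WT mice 5 tumors given isotype control and 5 given PD-1 Ab at day 11 after implant (1 dose), 5 and 5 such tumors at day 15 (2 doses), and 10 PD-1cKO and 10 WT tumors. The PD-1 Ab was muDX400, given at 5 mg/kg. PD-1cKO mice carried a floxed Pdcd1 and a tamoxifen-activated Cre expressed from the ubiquitous ROSA26 locus, so that the deletion was not limited to T cells. These mice and their littermate controls (WT) both received 40 mg/kg tamoxifen on 5 days and are labelled as day 28, whereas the methods of the study place them at day 22.

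The gamma chain encoded by Il2rg is shared by the receptors for IL-2, IL-4, IL-7, IL-9, IL-15 and IL-21. Each receptor adds a private chain, such as the IL-7 receptor alpha chain (Il7r), the IL-21 receptor (Il21r) or the IL-4 receptor alpha chain (Il4ra), and the receptors for IL-2 and IL-15 share a beta chain (Il2rb). JAK1 and JAK3 bind to the receptor tails and activate STAT proteins, and the signal maintains T cells and NK cells and drives their expansion. IL-15 is largely presented on IL-15 receptor alpha (Il15ra) by myeloid and stromal cells, and IL-7 comes mostly from stromal and epithelial cells, whereas IL-2 and IL-21 are products of activated T cells.

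In GRCm38, Il2 (chr3:37120523-37125959) and Il21 (chr3:37222759-37232636) are neighbours on the minus strand with 96.8 kb and no other protein-coding gene between them. Il4ra (chr7:125552120-125579474) and Il21r (chr7:125603429-125633570) lie 24.0 kb apart on the plus strand, also with no coding gene between them. Il15ra (chr2:11705290-11734317, plus strand) lies 12.1 kb from Il2ra, the IL-2 receptor alpha chain. The other members are on the minus strand, Il7 at chr3:7569994-7613760, Il15 at chr8:82331632-82403222, Il2rb at chr15:78479256-78495271, Il7r at chr15:9505788-9530176 and Il2rg at chrX:101264378-101268255. For Il2rg, 30.5% of the exonic bases are also annotated to a same-strand gene, Gm20489, and 27.5% of the 50-base stretches of its transcripts occur in another gene, so its values are uncertain to that degree. Gm20489 itself ranged from 0 to 0.304 FPKM. Exons of Il21, Il7 and Il4ra overlap a gene of the opposite strand over 8.92%, 1.85% and 9.51% of their bases, and the strand setting of the counting is not given in the sources used here. Il2 shares 12.6% of its stretches with another gene, and each of the other 8 members shared less than 1%.

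Il2rg and Il21r are shown because both were called higher at day 15 of PD-1 Ab treatment and their starts in RefSeq and GENCODE coincide. Each line gives the 250 bases before the RefSeq start (GRCm38.p6), read 5′ to 3′ on the gene's strand, at chrX:101268256-101268505 (minus) for Il2rg and chr7:125603179-125603428 (plus) for Il21r. Capitals mark matches, on either strand, to the RUNX motif TGTGGT or the ETS motif CCGGAAG.
Il2rg: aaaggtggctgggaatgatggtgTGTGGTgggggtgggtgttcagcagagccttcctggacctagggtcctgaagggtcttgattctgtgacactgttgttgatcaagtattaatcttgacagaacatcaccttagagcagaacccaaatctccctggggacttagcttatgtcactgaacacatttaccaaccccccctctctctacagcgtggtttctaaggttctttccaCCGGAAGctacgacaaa
Il21r: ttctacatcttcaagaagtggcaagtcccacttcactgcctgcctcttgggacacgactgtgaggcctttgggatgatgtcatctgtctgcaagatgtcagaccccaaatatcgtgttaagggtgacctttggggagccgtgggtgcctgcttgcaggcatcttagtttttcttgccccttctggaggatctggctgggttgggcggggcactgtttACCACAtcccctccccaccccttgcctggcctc
The Il2rg window held a RUNX match that begins 227 bases before the start and an ETS match that begins 17 bases before it, and the Il21r window held 1 RUNX match, 33 bases before its start. Among 32851 promoter windows of the same length, 14.0% held the RUNX motif and 6.91% the ETS motif. The windows that RefSeq gives for Il7r, Il4ra, Il15ra, Il2 and Il21 were searched too. Il7r held 1 match to the STAT motif TTCNNNGAA (7.02% of all windows), 1 of the 2 windows of Il15ra held the ETS motif, and Il4ra, Il2 and Il21 held no match to any motif searched. No match overlapped another, and none of these windows held the STAT motif with a spacer longer by 1 base (5.85% of all windows), the interferon-stimulated response element (2.98%) or the cyclic AMP motif TGACGTCA (1.55%).

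The data came with limits that touch these genes. Isotype control replicate 1 at day 11 stood apart, with 54.6% of its FPKM in mitochondrial genes where the 4 further isotype control tumors of day 11 held 3.45% to 4.31%. In the tamoxifen study short noncoding RNA classes held a median of 45.3% of FPKM in WT tumors and 54.0% in PD-1cKO tumors, against under 0.1% in each library of the other groups, so levels were compared within a study. This share ran from 30.2% to 54.6% in WT and from 31.1% to 66.5% in PD-1cKO tumors, so comparing these groups does not remove it. Its part in their differences was not tested. Pdcd1 at gene level ranged from 1.71 to 7.02 FPKM (median 3.01) in WT tumors and from 5.05 to 19.9 (median 8.29) in PD-1cKO tumors; the deletion removes only exons 2 and 3, so this value does not check the label. Of the 10 PD-1cKO samples, 7 have identifiers in a run that holds no WT sample. Krt8 and Krt18, listed as markers of the carcinoma cells, summed to only 0.369 to 0.487 FPKM in culture, so they did not mark MC-38 cells here. The study gives a range of mapped reads over all samples but not the depth of each, so the reads behind an FPKM are not known per sample. Errors rest on the spread between replicates, which nothing states to come from separate experiments, and in the fits they were moderated over all genes.

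Il2 and Il21, the T cell-derived ligands, were at or near 0 in every group. Il2 was above 0 in 16 of 43 tumors with a highest value of 0.244 FPKM, and Il21 in 30 of 43 tumors with a highest value of 0.220 FPKM. In PD-1 Ab-treated tumors at day 15 Il2 measured 0.0786, 0, 0.165, 0.244 and 0 FPKM, and in isotype control tumors it was listed at 0 in 4 tumors and at 0.0710 in the other. Il21 had a median of 0.0839 FPKM in PD-1cKO tumors (0 to 0.220) and 0.0303 in WT tumors (0 to 0.0846). Both genes were below the 0.5 FPKM filter and were not tested, and the ranges of neighbouring groups overlapped throughout.

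**Figure D1:**
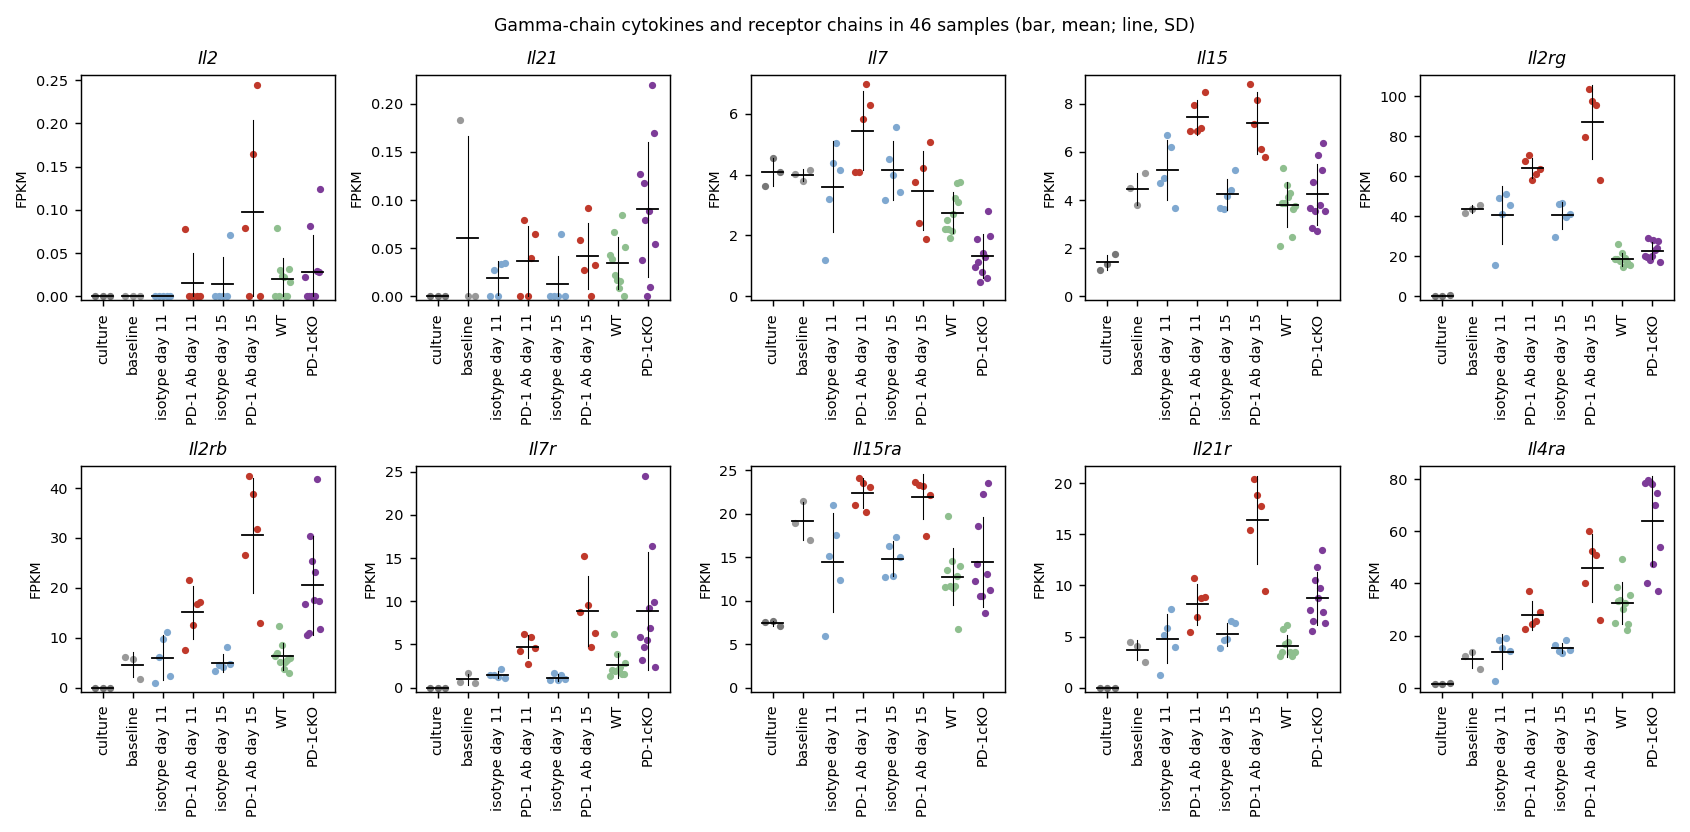
FPKM of the 10 members in every sample (points) of the 8 groups, with the group mean (bar) and SD (line, ending at 0 where it would pass below); each panel has its own linear axis. Il2 and Il21 stay under 0.25 FPKM, Il2rb, Il7r and Il21r are at 0 in culture, and at day 15 the PD-1 Ab-treated tumors lie above all isotype control tumors for Il15 and all 6 receptor chains.

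Il7 and Il15, the other ligands, were present in all 46 samples, the 3 cultures of MC-38 cells included. Cultured MC-38 cells had 3.64, 4.56 and 4.08 FPKM of Il7, and the baseline and day 15 isotype control tumors had means of 3.99 ± 0.19 (SD, n = 3) and 4.14 ± 0.96 (n = 5). Outside the tamoxifen study the order of the Il7 means ran from PD-1 Ab day 11 (5.45 FPKM) through isotype day 15, culture, baseline and isotype day 11 (3.60) to PD-1 Ab day 15 (3.47), and each group overlapped its neighbour. In the tamoxifen study the means were 2.75 in WT and 1.33 in PD-1cKO tumors. In the same groups without tamoxifen Il15 ran from 7.44 ± 0.74 FPKM (n = 5) in PD-1 Ab-treated tumors at day 11 to 1.40 ± 0.33 (n = 3) in culture, and the 3 cultures were the one group separated from its neighbour. Il15ra, the presenting chain, was the receptor member with the highest level in cultured cells, 7.49, 7.63 and 7.10 FPKM. Il15ra exceeded Il15 in FPKM in every tumor, with medians of the ratio between 2.85 and 4.23 over the 7 tumor groups.

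Il2rg had the highest FPKM of the members in the tumors of WT mice without tamoxifen, and Il4ra in the tamoxifen study. Il2rg averaged 87.0 ± 18.5 FPKM (n = 5) in PD-1 Ab-treated tumors at day 15 and 64.3 ± 5.1 (n = 5) at day 11, overlapping each other and separated from baseline (43.7 ± 1.9, n = 3), which overlapped both isotype control groups. Cultured cells had 0.324, 0.282 and 0.433 FPKM of Il2rg. Il4ra averaged 45.9 ± 13.2 FPKM (n = 5) in PD-1 Ab-treated tumors at day 15 and 27.7 ± 5.7 (n = 5) at day 11, overlapping each other. Isotype day 15, isotype day 11 and baseline tumors (means of 15.3, 13.8 and 11.1 FPKM) followed after a gap, and culture (1.52 ± 0.14, n = 3) was separated again. In the tamoxifen study Il4ra averaged 63.9 ± 17.3 FPKM (n = 10) in PD-1cKO and 32.5 ± 8.0 (n = 10) in WT tumors. Among the tumors without tamoxifen Il2rb, Il7r and Il21r were highest after PD-1 Ab at day 15 and next highest after PD-1 Ab at day 11, and neighbours overlapped down to the lowest tumor group except for Il7r between PD-1 Ab and isotype control at day 11.

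Isotype control tumors at day 15 were compared with cultured cells, which sets whole tumor tissue against the cancer cells in culture. Il15 and the receptor chains other than Il15ra were called higher in tumors (limma on log2(FPKM + 0.1), Benjamini-Hochberg adjusted p under 0.01 and at least 2-fold). Of 15199 tested genes 14.2% were called higher. Cancer cells in the tumor and other cells cannot be told apart here. Il15 measured 3.69, 3.61, 4.19, 4.44 and 5.24 FPKM in tumors against 1.11, 1.34 and 1.76 in culture, a log2 difference of 1.54 (SE 0.19, adjusted p = 0.000127). Il4ra differed by 3.24 (SE 0.13, adjusted p = 6.45e-08), with tumors at 13.2 to 18.2 FPKM and cultures at 1.39 to 1.67. Il2rg differed by 6.51 (SE 0.17, adjusted p = 4.33e-09). Il2rb, Il7r and Il21r were listed at 0 in all 3 cultures, as was Cd3e, the T cell receptor subunit used below as a T cell measure, so no fold is given. In bulk tissue more cells of a type and more RNA per cell cannot be told apart, here and in each comparison that follows. Il15ra lay just under the fold limit, with a log2 difference of 0.98 (SE 0.12, adjusted p = 0.000143). The difference for Il7 was -0.01 (95% interval -0.44 to 0.42). Il15 and all 6 receptor chains did not overlap between the groups; 26.3% of tested genes were separated in that direction. Il2rg, Il2rb, Il7r and Il21r passed the filter through the tumors alone, so they had to differ to be tested. Baseline and day 15 isotype control tumors differed in 0.595% of 14967 genes and in no member, and none of the alternatives run called a member. An unadjusted p under 0.05 in limma was reached by 2 of the 8 tested members (Il15ra and Il4ra) and by 2647 of the 14967 genes.

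The comparison of PD-1 Ab with isotype control at day 15 addressed what 2 doses of antibody changed. Il7r, Il2rb, Il21r, Il4ra and Il2rg were called higher after PD-1 Ab, 5 of the 8 members tested, where 5.03% of 15062 genes were called higher. Il15 and Il15ra also passed the adjusted p but not the fold, which makes 7 of 8 against 6.69% of genes, and the same 7 did not overlap between the groups (9.23% of genes). When each tumor was left out in turn the adjusted p of Il15 rose to at most 0.0258 and that of Il15ra to at most 0.0295, and with all tumors in 1 fit they were 0.0202 and 0.176, so the count of 7 depends on the setting. The median log2 difference of the 8 members was 1.31, and that of all tested genes was -0.04.

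Il7r, which marks T cells and innate lymphoid cells able to respond to IL-7, measured 8.73, 15.3, 9.56, 4.67 and 6.30 FPKM after PD-1 Ab and 0.860, 1.68, 0.827, 1.49 and 0.950 in isotype control tumors. The lowest treated tumor was above the highest control, and the log2 difference was 2.78 (SE 0.31, adjusted p = 0.000837). Il2rb, the beta chain of the IL-2 and IL-15 receptors, measured 26.7, 42.3, 38.9, 31.7 and 12.9 FPKM after PD-1 Ab and 3.27, 4.58, 4.15, 8.09 and 4.67 in isotype control tumors. The difference was 2.55 (SE 0.31, adjusted p = 0.000885), with PD-1 Ab replicate 5 the lowest treated tumor and isotype replicate 4 the highest control.

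Il21r, the private chain for IL-21, measured 15.4, 20.4, 18.8, 17.7 and 9.43 FPKM against 3.86, 4.66, 4.80, 6.47 and 6.28 in controls, a log2 difference of 1.61 (SE 0.21, adjusted p = 0.00106). Its neighbour Il4ra, the chain that binds IL-4 and is expressed by myeloid cells as well as lymphocytes, measured 40.3, 60.1, 52.4, 50.9 and 26.1 FPKM against 16.3, 14.2, 13.2, 18.2 and 14.4, a difference of 1.54 (SE 0.20, adjusted p = 0.000991). For both genes PD-1 Ab replicate 5 was again the lowest treated tumor, and it remained above every control. Il2rg measured 79.8, 103.8, 97.8, 95.7 and 57.9 FPKM against 29.8, 46, 46.5, 39.6 and 41.1, a difference of 1.09 (SE 0.17, adjusted p = 0.00185). This value is close to the fold limit, and without isotype replicate 1 it fell to 0.98 and Il2rg was no longer called.

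The ligands moved less. Il15 measured 8.83, 7.18, 8.14, 6.11 and 5.80 FPKM after PD-1 Ab and 3.69, 3.61, 4.19, 4.44 and 5.24 in isotype control tumors, a log2 difference of 0.75 (SE 0.16, adjusted p = 0.00692). Il15ra measured 23.7, 23.3, 23.2, 17.4 and 22.2 FPKM against 12.7, 16.3, 12.9, 17.3 and 15.0, a difference of 0.56 (SE 0.12, adjusted p = 0.0086). Both genes were separated between the groups, Il15ra by a narrow margin. Il7 measured 3.76, 2.42, 4.21, 1.88 and 5.07 FPKM against 3.17, 4.53, 4.01, 5.57 and 3.42, which overlap, with a difference of -0.31 (95% interval -0.88 to 0.27, adjusted p = 0.412).

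Cell markers moved with these members. At day 15, 6 of 6 T cell markers and both Cd8 genes were called higher, and the summed T cell list ran from 26.4 to 110.7 FPKM after PD-1 Ab and from 7.59 to 15.0 in isotype control tumors. The 4 macrophage or monocyte markers were also called higher (sum 201.5 to 454.3 FPKM against 113.9 to 152.4), the CD4 T cell marker and 1 of 3 NK markers were, and none of 4 B cell markers was. Of 4 dendritic cell markers 2 were called higher, while the sum of that list ran from 147.8 to 206.2 FPKM after PD-1 Ab and from 193.8 to 293.9 in isotype control tumors, and was already 170.4 to 180.8 in culture. Markers of lymph node stroma, fat, muscle and endothelium each had 1 gene called higher. None of the 4 naive or memory T cell markers and none of the 3 fibroblast markers was. Krt8 and Krt18 summed to 0 to 27.7 FPKM after PD-1 Ab and to 0.127 to 14.8 in isotype control tumors. Ptprc, expressed by all leukocytes, differed by 1.42 on the log2 scale and was not called. The part of these markers in the members' differences was not tested.

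**Figure D2:**
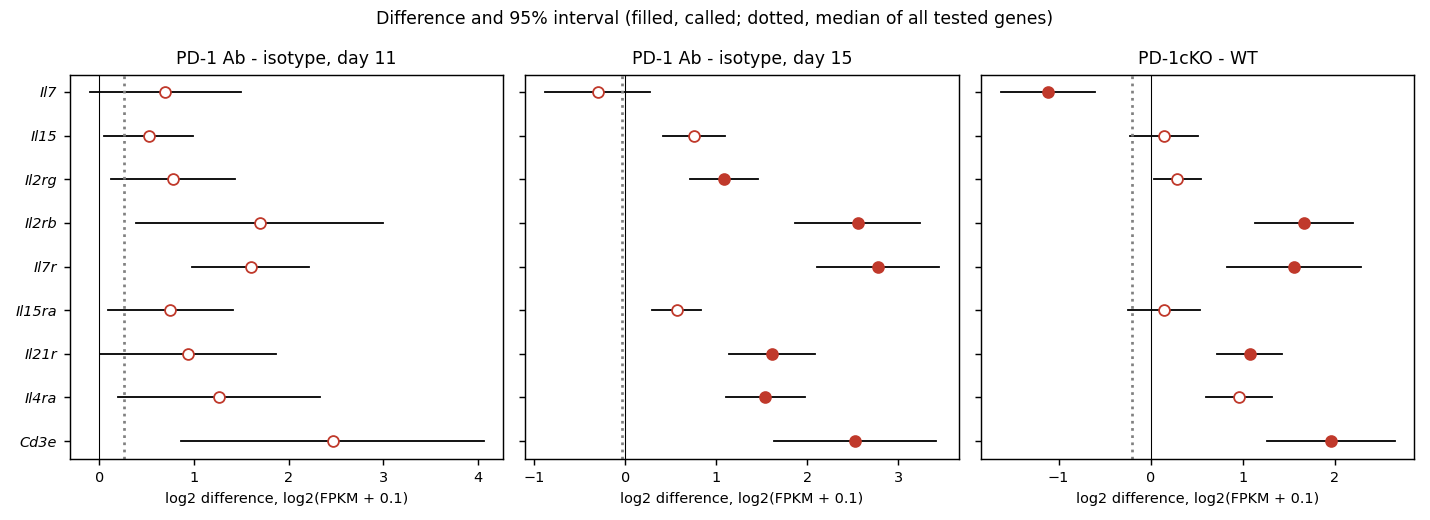
Log2 difference (point) with its 95% interval (line) for the 8 tested members and Cd3e in 3 comparisons; filled points were called, and the dotted line is the median of all tested genes. No point is filled at day 11, 5 members and Cd3e are filled at day 15, and Il7 lies on the lower side in PD-1cKO tumors.

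At day 11, after 1 dose, no member was called, and limma called 0.0% of 14556 genes. With array weights limma called 22 genes and no member. At an unadjusted p under 0.05 there were 895 genes, among them 7 of the 8 tested members, all higher after PD-1 Ab. Of all tested genes 88.3% had a positive difference at day 11, so this direction is the background here. The median log2 difference was 0.86 for the members and 0.26 for all tested genes. Il7r measured 4.26, 6.15, 2.78, 5.83 and 4.59 FPKM after PD-1 Ab and 1.5, 1.43, 1.18, 2.16 and 1.11 in isotype control tumors, a difference of 1.60 (SE 0.28, adjusted p = 0.135). Il2rb measured 7.47, 21.5, 12.5, 16.8 and 17.2 FPKM against 0.915, 6.11, 9.66, 11.1 and 2.37, a difference of 1.69 (SE 0.60, adjusted p = 0.598). The treated tumors lay above all controls for Il7r, and 1 treated tumor lay within the control range for Il2rb. Il4ra, Il2rg and Il15 were also separated between the groups, which makes 4 of 8 members against 3.59% of genes. Il4ra ran from 22.4 to 36.9 FPKM against 2.39 to 19.0, Il2rg from 58.2 to 70.9 against 15.5 to 51.1, and Il15 from 6.86 to 8.48 against 3.65 to 6.72. The lowest isotype value of Il2rg, Il2rb, Il21r, Il4ra, Il15ra and Il7 came from replicate 1, the mitochondria-rich library. Without it the difference fell to 0.46 for Il2rg, 1.16 for Il2rb and 0.72 for Il4ra and stayed at 1.61 for Il7r (adjusted p = 0.0215), still with no member called.

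The antibody effect at day 15 minus that at day 11 was tested directly, and 0.0% of 15289 genes were called, no member among them. Il7r had the largest difference of the effects, 1.18 (95% interval 0.29 to 2.07, adjusted p = 0.623), and Il7 differed by -1.0 (-1.98 to -0.03, adjusted p = 0.623). The members of both time points are therefore given side by side, with no claim that 2 doses exceeded 1.

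PD-1cKO and WT tumors addressed the loss of Pdcd1 itself under tamoxifen. Il2rb, Il7r and Il21r were called higher in PD-1cKO tumors, where 4.2% of 15075 genes were called higher, and Il7 was called lower, where 3.87% were. Of all called genes 633 were higher and 584 lower, a split that became 922 and 335 with median-of-ratios and 945 and 315 with upper-quartile scaling. Il4ra passed the adjusted p but not the fold, which makes 4 of 8 tested members higher against 8.78% of genes. No member was separated between the groups of 10 (0.643% of genes were, in the higher direction). The median log2 difference was 0.62 for the members and -0.20 for all tested genes.

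Il2rb ran from 10.5 to 41.8 FPKM (median 17.4) in PD-1cKO tumors and from 2.88 to 12.3 (median 5.70) in WT tumors, and 7 of 10 PD-1cKO tumors exceeded every WT tumor. The log2 difference was 1.67 (SE 0.26, adjusted p = 0.000606). Il7r ran from 2.36 to 24.5 FPKM (median 6.41) against 1.30 to 6.16 (median 2.10), with 5 of 10 above every WT tumor and a difference of 1.55 (SE 0.35, adjusted p = 0.00279). Il21r ran from 5.49 to 13.4 FPKM (median 8.19) against 3.05 to 6.16 (median 3.52), with 9 of 10 above every WT tumor and a difference of 1.08 (SE 0.17, adjusted p = 0.000611).

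Il4ra ran from 37.3 to 79.8 FPKM (median 72.4) in PD-1cKO tumors and from 22.0 to 49.3 (median 32.9) in WT tumors, and 7 of 10 exceeded every WT tumor. Its difference of 0.96 (SE 0.17, adjusted p = 0.000834) lay just under the fold limit. Il2rg ran from 17.4 to 29.3 FPKM (median 21.7) against 14.4 to 26.0 (median 18.2), a difference of 0.29 (95% interval 0.04 to 0.54, adjusted p = 0.0571). Il15 (0.14, interval -0.23 to 0.51) and Il15ra (0.15, interval -0.24 to 0.54) were not called. Il7 ran from 0.464 to 2.81 FPKM (median 1.21) in PD-1cKO tumors and from 1.93 to 3.77 (median 2.60) in WT tumors, with 8 of 10 below every WT tumor and a difference of -1.12 (SE 0.25, adjusted p = 0.0025). Relative to a median shift of -0.20 over all genes, median-of-ratios scaling gave -0.97 and upper-quartile scaling -0.96, and Il7 was then under the fold limit while Il4ra passed it under both scalings.

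The runs of sample identifiers were also compared one at a time. In the run of 9 WT samples and 1 PD-1cKO sample, the PD-1cKO tumor had 41.8 FPKM of Il2rb against 2.88 to 12.3, 16.3 of Il7r against 1.30 to 6.16, 13.4 of Il21r against 3.05 to 6.16, and 0.612 of Il7 against 1.93 to 3.71. In the run of 2 PD-1cKO samples and 1 WT sample, Il2rb was 11.7 and 17.3 against 5.85, Il21r was 6.32 and 7.39 against 3.48, and Il7 was 1.99 and 2.81 against 3.77. Il7r was 2.36 and 9.92 there against 2.81, so 1 of the 2 was lower. With the run as a covariate the differences were 2.16 for Il2rb, 1.93 for Il7r, 1.40 for Il21r and -1.38 for Il7, with adjusted p from 0.0254 to 0.0362, and no gene of the table was called. In these tumors 6 of 6 T cell markers (sum 23.6 to 120.4 FPKM against 10.1 to 34.0), both Cd8 genes and the CD4 T cell marker were called higher. So were 1 of 4 macrophage or monocyte markers and 1 of 3 fibroblast markers (Col1a1, a collagen). The log2 differences of the fibroblast list ran from -0.05 to 1.68. No tested marker of naive or memory T cells, NK cells, dendritic cells, B cells, endothelium, lymph node stroma, fat or muscle was called. The part of the markers in the members' differences was not tested.

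The antibody effect at day 15 minus the PD-1cKO effect was called for 0.0914% of 16404 genes and for no member. Il2rg came closest, 0.79 (95% interval 0.36 to 1.23, adjusted p = 0.0766), and Il7r differed by 1.2 (0.07 to 2.37, adjusted p = 0.292). Both models also differ in day, tamoxifen and RNA composition, which cannot be told apart from the treatment.

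The members listed as lymphoid (Il2, Il21, Il2rb, Il2rg, Il7r and Il21r) were then set against Cd3e in the same tumor. This asked whether they rose more or less than this T cell gene. Il2rg did not follow Cd3e in the baseline tumors, with 41.9, 43.7 and 45.6 FPKM beside 2.43, 1.88 and 0.485 of Cd3e. Its ratio to Cd3e therefore does not give the gamma chain per T cell. Cd3e was 4.48 to 19.0 FPKM after PD-1 Ab and 0.932 to 3.27 in isotype control tumors at day 15, a log2 difference of 2.52, and differed by 1.96 in PD-1cKO against WT. Nearly all genes are therefore lower relative to Cd3e, 88.8% of those tested at day 15, 92.1% in PD-1cKO and 75.0% at day 11, so a call as lower is the background here. At day 15 the log2 ratio of Il2rb to Cd3e averaged 1.23 ± 0.17 (SD, n = 5) after PD-1 Ab and 1.19 ± 0.46 (n = 5) in isotype control tumors, a difference of 0.04 (95% interval -1.03 to 1.10, adjusted p = 0.948). Il7r to Cd3e averaged -0.54 ± 0.78 and -0.80 ± 0.76, a difference of 0.26 (-0.85 to 1.37, adjusted p = 0.654). Il21r (-0.91, interval -1.98 to 0.16, adjusted p = 0.101) was not called, and Il2rg was called lower (-1.43, interval -2.47 to -0.39, adjusted p = 0.00776). This call of Il2rg was lost in 11 of 15 alternatives, 8 of them leaving out 1 tumor (adjusted p up to 0.0337), and against Ptprc the value was -0.33 (adjusted p = 0.518). These intervals rest on a variance that the fit moderated over all genes, with SE of 0.54 for Il2rb and 0.57 for Il7r. Every ratio carries the variation of Cd3e, so the moderated variance can exceed the spread of a gene that varies with Cd3e. The log2 ratios of Il2rb ran from 1.06 to 1.51 after PD-1 Ab and from 0.56 to 1.71 in isotype control tumors. Those of Il21r ran from 0.10 to 1.06 and from 0.77 to 1.94. As fitted, the interval of Il2rb includes a 2-fold change of the ratio in both directions and that of Il7r a 2-fold rise. These widths are not the members' own spread, so the intervals do not decide on equal change with Cd3e.

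In PD-1cKO against WT the ratio to Cd3e differed by -0.29 for Il2rb (95% interval -0.91 to 0.32, adjusted p = 0.346), -0.40 for Il7r (-1.03 to 0.23, adjusted p = 0.208) and -0.88 for Il21r (-1.56 to -0.21, adjusted p = 0.013). Il2rg was called lower, by -1.67 (-2.41 to -0.93, adjusted p = 9.29e-05), a call that was lost against Ptprc (-0.14, adjusted p = 0.65). At day 11 none of the 4 was called, and the differences were -0.77 for Il2rb, -0.87 for Il7r, -1.53 for Il21r and -1.68 for Il2rg. The mitochondria-rich isotype control tumor had 0.0455 FPKM of Cd3e and the highest log2 ratio of Il7r to Cd3e in its group, 3.46, and without it the difference for Il7r was -0.22. With Ptprc in place of Cd3e, Il7r at day 15 was called higher (1.36) and so were Il2rb (1.24) and Il7r (1.13) in PD-1cKO tumors, and the sign also turned for Il2rb (0.91), Il7r (0.81) and Il21r (0.16) at day 11 and for Il21r at day 15 (0.19) and in PD-1cKO tumors (0.65). Against Ptprc, 78 of 15061 tested genes were called higher at day 15 and 219 of 15074 in PD-1cKO tumors. Size and sign of the members' differences depend on the gene the members are set against.

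**Figure D3:**
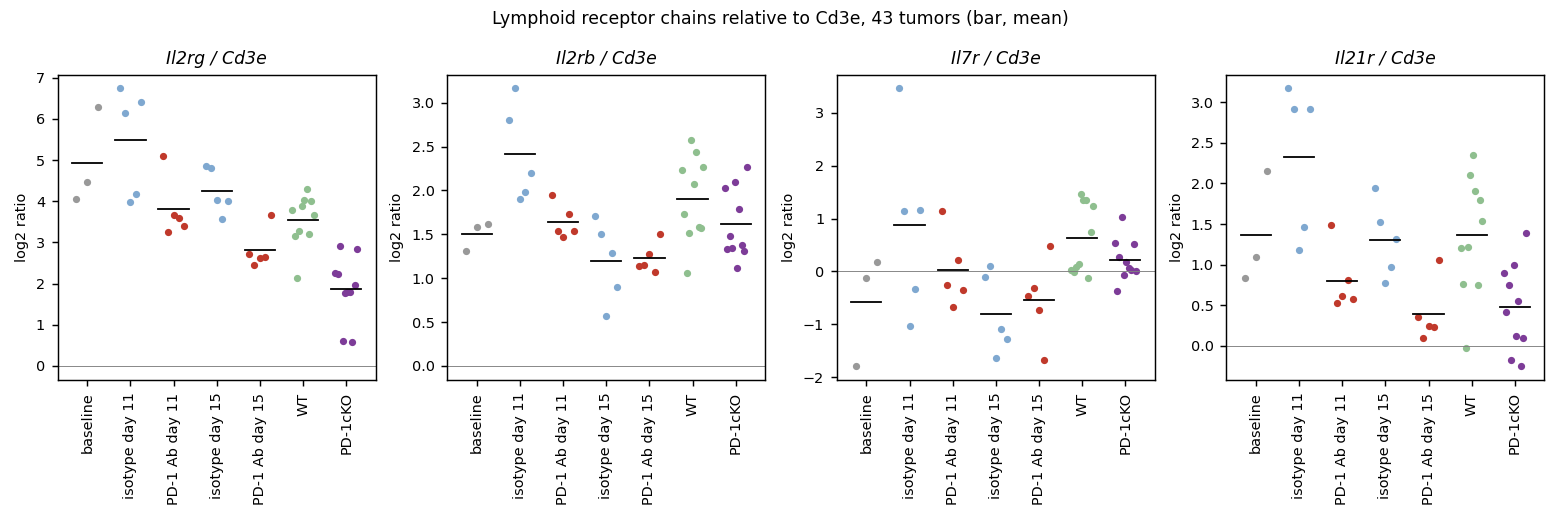
Log2 ratio of Il2rg, Il2rb, Il7r and Il21r to Cd3e in each of 43 tumors (points) by group, with the group mean (bar); 0 is an equal level. The mean of Il2rg lies lower after PD-1 Ab and in PD-1cKO tumors than in the matching controls, and Il2rb lies at a mean of 1.19 to 1.23 in both groups of day 15.

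Set against each other per length, Il2rb had a median of 0.110 times the FPKM of Il2rg in isotype control tumors at day 15 (0.0892 to 0.204) and 0.334 times after PD-1 Ab (0.223 to 0.408), so the groups did not overlap. The ratio was 0.329 in WT tumors (0.180 to 0.473) and 0.759 in PD-1cKO tumors (0.372 to 1.74), with overlap. These ratios of levels are a description.

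Among the 43 tumors, the deviations of each member from its group mean were set against those of 12408 genes that averaged 1 FPKM or more, as a description, since points share libraries. Il4ra was most like Csf1r, the macrophage growth factor receptor (Pearson r = 0.96, Spearman rho = 0.93), then Galnt6 and Cd40. Il21r was most like Il10ra (r = 0.94, rho = 0.92), Unc13d and Sema4a, and Il2rb was most like Sh2d2a, a T cell adaptor (r = 0.93, rho = 0.94), Nfatc2 and Il10ra. Il7r was most like Id2 (r = 0.88, rho = 0.80), Cd84 and Gimap8. Il15ra was most like Parp14 (r = 0.89, rho = 0.81), Taf4 and Slc25a37. Il15 was most like Ifi204 (r = 0.66, rho = 0.65), Mndal and Trim12a, with Ifi204 and Mndal interferon-inducible. Il2rg was most like Pml (r = 0.84, rho = 0.78), Grina and BC037034, and Il7 was most like Pdlim5 (r = 0.85, rho = 0.81), Arntl and Ckap5. Without the mitochondria-rich tumor r was 0.94 for Csf1r, 0.91 for Il10ra and 0.91 for Sh2d2a, and it fell to 0.75 for Pml. Against Cd3e the members ran from r = 0.91 for Il2rb and 0.83 for Il21r through 0.62 for Il2rg, 0.60 for Il4ra, 0.53 for Il15ra, 0.51 for Il7r and 0.37 for Il15 to 0.03 for Il7. Without the mitochondria-rich tumor these values were 0.89 for Il2rb, 0.79 for Il21r, 0.58 for Il7r, 0.49 for Il2rg, 0.46 for Il4ra, 0.41 for Il15ra, 0.39 for Il15 and -0.19 for Il7. Against Ptprc over the 43 tumors r was 0.79 for Il7r, 0.70 for Il2rb, 0.64 for Il21r and 0.47 for Il15. It was 0.44 for Il15ra, 0.42 for Il4ra, 0.31 for Il2rg and 0.02 for Il7. Over the 43 tumors Il7r and Il15 had the higher r with Ptprc and the other members with Cd3e.

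Of 28 other genes of the pathway, 2 were called higher at day 15 and none lower among 25 tested, where 5.03% of all genes were called higher. They were Il2ra (1.39, SE 0.24, adjusted p = 0.003) and Gzmb, the cytotoxic granule protease granzyme B (3.0, SE 0.33, adjusted p = 0.000837). The feedback inhibitors Cish (0.86, adjusted p = 0.00491) and Socs1 (0.89, adjusted p = 0.0017), the kinase Pim1 (0.83, adjusted p = 0.00538) and the receptor chain Crlf2 (0.83, adjusted p = 0.0054) passed the adjusted p but not the fold. Of all tested genes 6.69% passed the adjusted p in the higher direction. Jak1, Jak3, Stat3, Stat5a, Stat5b and Stat6 were not called and ranged from 0.18 for Stat5a to 0.43 for Stat6. The median of these genes was 0.33 against -0.04 for all genes. Myc had the lowest value of the targets, -0.58 (adjusted p = 0.0423), and Il9r that of the other chains, -0.19.

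In PD-1cKO tumors 3 of 25 tested pathway genes were called higher and none lower, against 4.2% of all genes called higher. They were Cish (1.09, adjusted p = 0.00176), Crlf2 (1.31, adjusted p = 0.000414) and Gzmb (1.43, adjusted p = 0.000999). The largest difference of the other ligands and chains was 1.48, of a gene that was not called and is not named here. Il2ra differed by 0.38 (adjusted p = 0.193) and Pim1 by 0.80 (adjusted p = 0.00096), under the fold limit. Of all tested genes 8.78% passed the adjusted p in the higher direction. Socs3 had the lowest value of the feedback genes, 0.21, Jak1 that of the transducers, -0.41, Il9r that of the other chains, -0.56, and Myc that of the targets, -0.49. The median of these genes was 0.29 against -0.20 for all genes. At day 11 none of them was called. Il9 was at 0 in all 46 samples, Il13 reached 0.543 FPKM and Il4 reached 1.55 FPKM. Foxp3, the regulatory T cell factor, differed by 0.40 at day 15 (adjusted p = 0.265) and was below the filter in the tamoxifen study.

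**Figure D4:**
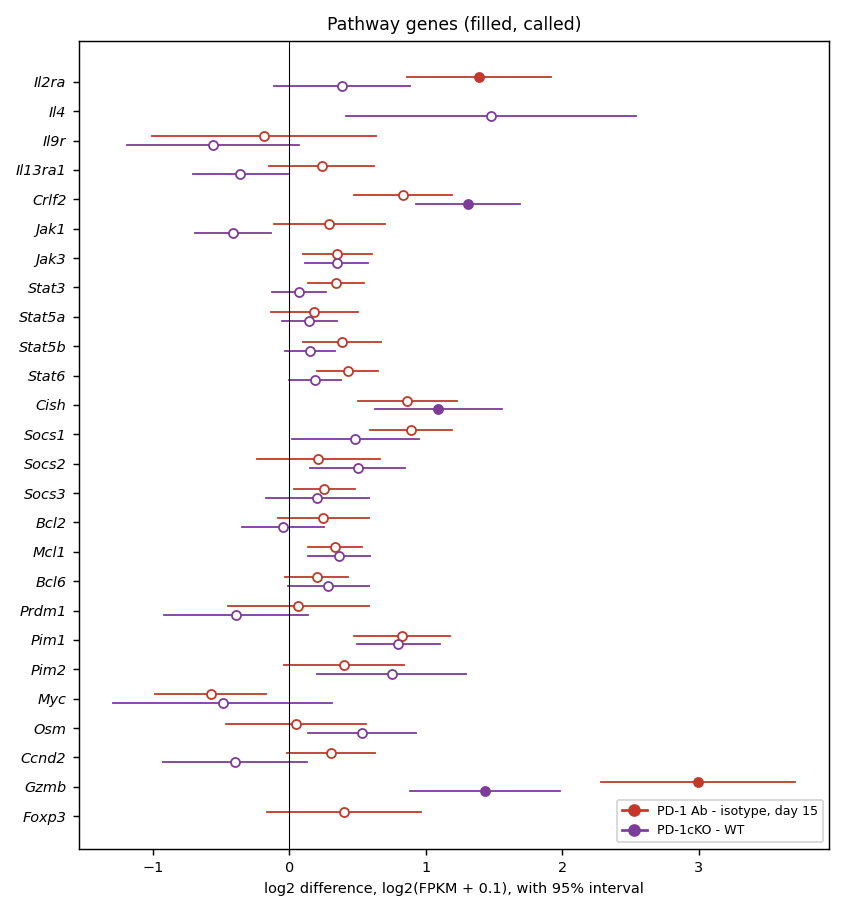
Log2 difference with its 95% interval for 26 pathway genes at day 15 of PD-1 Ab treatment (red) and in PD-1cKO against WT (purple), where tested; filled points were called. Gzmb and Il2ra are filled at day 15, and Gzmb, Cish and Crlf2 in PD-1cKO tumors.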

How the data were processed

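RNA was measured by RNA-seq of bulk tissue in 46 samples grouped by the replicate group in the labels. The authors made stranded total RNA libraries, read paired ends of 50 bases and quantified Ensembl genes on mouse build B38 with OSA in Omicsoft Array Studio. The deposited values are FPKM, computed by the authors; depth per sample cannot be derived from them, and counts were not used here. Symbols, coordinates and exons came from GENCODE M21 (GRCm38), which matched 99.1% of identifiers, and promoters from RefSeq.

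Values were used as deposited, as log2(FPKM + 0.1), which understates the change of low genes. For each comparison, genes that averaged 0.5 FPKM or more in a group compared entered a linear model per gene (limma 3.58.1 under R 4.3.3, with lmFit and eBayes with trend), with Benjamini-Hochberg adjustment over all tested genes. A call required an adjusted p below 0.01 and a 2-fold difference. Ratios to Cd3e were fitted the same way after subtracting its log2 value, so the moderated variance of every ratio carries the variation of Cd3e. The code was tested on simulated data. The members, pathway and marker lists were chosen with earlier results of these data known. The genes named are the members, Cd3e, the pathway genes that were called, and for each member the 3 genes most like it. Some further pathway genes are named for the largest or smallest change of their group, and others for passing the adjusted p alone. Part of the pathway list as first chosen is not reported here. Alternatives were another pseudocount, filter, scaling, weighting or threshold, all tumors in 1 fit, eBayes without trend, the replicate number as a block, the identifier run as a covariate, other denominators and leaving out each replicate.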

Additional observations from a re-analysis of the deposited data

Results flagged for a closer look

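Of 59 combinations of a member and a group of 5 to 10 samples whose values were not all equal, 8 had 1 sample far from the others by Dixon's test, where chance gives about 5% of groups. In the mitochondria-rich isotype control replicate 1 at day 11, Il2rg was 15.5 FPKM against 41.2 to 51.1 in the other tumors, and Il4ra was 2.39 against 14.2 to 19.0. Isotype control replicate 4 at day 15 had 8.09 FPKM of Il2rb against 3.27 to 4.67. PD-1 Ab replicate 4 at day 15 had 17.4 FPKM of Il15ra against 22.2 to 23.7. The other 4 were single low values in groups otherwise at or near 0. Il2 was 0.0781 FPKM in PD-1 Ab replicate 1 at day 11, 0.0710 in isotype control replicate 5 at day 15 and 0.0785 in WT replicate 2, and Il21 was 0.0650 in isotype control replicate 4 at day 15.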

How the results depend on the processing

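The 5 members called at day 15 were called under each alternative, with 4 to 5 when each replicate was left out in turn (leave-one-out; Il2rg lost without isotype control replicate 1), and no alternative called a member at day 11. In PD-1cKO tumors 4 members were called, against 2 (Il7r and Il2rb) with a pseudocount of 1 FPKM or with array weights and 0 with the identifier run as a covariate. In leave-one-out there were 3 to 5, where Il7 was lost without PD-1cKO replicate 4 and Il4ra was gained without PD-1cKO replicate 2 or 9 or WT replicate 5. Array weights called 3 members in each difference, Il7r, Il2rb and Il21r for day 15 minus day 11 and Il7r, Il2rb and Il2rg for day 15 minus PD-1cKO. For ratios to Cd3e only the members listed as lymphoid are counted. At day 11, 0 were called and 0 to 1 in leave-one-out (Il2rg without isotype control replicate 3 or 4). At day 15 the count of 1 (Il2rg) became 0 with a pseudocount of 1 FPKM, 3 with no filter (Il2 and Il21 added) and 0 to 1 in leave-one-out (0 without any one of PD-1 Ab replicates 1 to 4 or isotype control replicates 1, 2, 3 or 5). In PD-1cKO tumors the count of 1 became 3 with no filter, 2 with Ptprc as denominator, and 1 to 2 in leave-one-out (Il21r added without WT replicate 3).

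Some small values changed sign. Il7 in tumors against culture became 0.064 with median-of-ratios and 0.031 with upper-quartile scaling (-0.12 to 0.079 in leave-one-out). Between baseline and isotype control tumors, array weights gave 0.047 for Il7, 0.28 for Il2rb and 0.0018 for Il7r, and leave-one-out gave -0.11 to 0.087 for Il7, -0.024 to 0.19 for Il15 and -0.56 to 0.34 for Il2rb. Il15ra for day 15 minus day 11 became 0.088 and 0.022 with these scalings and 0.28 with array weights (-0.35 to 0.11 in leave-one-out). Against Ptprc the ratios were 0.91 for Il2rb, 0.81 for Il7r and 0.16 for Il21r at day 11, 0.19 for Il21r at day 15, and 1.24 for Il2rb, 1.13 for Il7r and 0.65 for Il21r in PD-1cKO tumors. The ratio of Il2rb to the mean of Cd3d, Cd3e and Cd3g was -0.093 at day 15 and 0.058 in PD-1cKO tumors, that to Cd3e with a pseudocount of 1 FPKM was 0.038 in PD-1cKO tumors, and that at day 15 in leave-one-out -0.12 to 0.17.

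Over all genes, 0 at day 11 were called, against 10 with all tumors in 1 fit, 22 with array weights, 1 at an adjusted p under 0.05 with no fold limit (the looser threshold) and 0 to 7 in leave-one-out. At day 15 it was 799, against 450 with no filter, 1773 with array weights, 3685 at the looser threshold and 375 to 1534 in leave-one-out. In PD-1cKO tumors it was 1217, against 617 with a pseudocount of 1 FPKM, 589 with array weights, 6572 at the looser threshold, 0 with the run and 743 to 1871 in leave-one-out. Against culture it was 3231, and 8279 at the looser threshold. Between baseline and isotype control tumors it was 89, against 135 with a pseudocount of 1 FPKM, 57 with no filter, 149 with all tumors in 1 fit, 398 with array weights, 456 at the looser threshold and 13 to 166 in leave-one-out. For day 15 minus day 11 it was 0, against 1 with no filter and 506 with array weights. For day 15 minus PD-1cKO it was 15, against 0 to 603 over the alternatives. For ratios it was 10911 at day 11, against 1 with Ptprc and 14 to 13157 in leave-one-out, 13373 at day 15, against 23934 with no filter, and 13884 in PD-1cKO tumors, against 27754 with no filter and 1762 with Ptprc. The cause was not tested. The depth of each sample, not known here, limits the low Il2 and Il21 values.

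With the replicate number as a block, 0 members were called for the ratio to Cd3e at day 15, no other member call changed, 316 genes were called at day 15 and 1 for day 15 minus PD-1cKO. Same numbers did not pair samples, whose deviations from group means correlated between -0.209 and 0.16 with r above 0.1 in 1 of 5 pairs at day 11, 0 of 5 at day 15 and 1 of 10 in the tamoxifen study.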
